A study of Mus musculus with 4 samples.

Results

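The enzymes of serine synthesis and of one-carbon folate metabolism were followed in cultured mouse spermatogonia that were kept in complete medium (Veh) or moved to a nutrient restriction medium plus retinoic acid (NRRA). The members were chosen by symbol, as the 10 genes of the count table named Phgdh, Psat1, Psph, Shmt1, Shmt2, Mthfd1, Mthfd2, Mthfd1l, Aldh1l1 and Aldh1l2, out of 55421 genes in all. All 10 passed the filter on low counts. Primary cultures of spermatogonia, referred to as SSC cultures after the spermatogonial stem cells they hold, had been established from the testes of CD1 pups 6 days old and were expanded on mouse embryonic fibroblast (MEF) feeder cells from CF1 mice that had been arrested by irradiation. The labels give N2 supplement and the growth factors bFGF and GDNF, each at 10 ng/ml, for every sample. The study's own list of media gives a higher GDNF concentration for complete SSC medium. Veh cultures stayed in complete SSC medium. NRRA cultures received a medium of 10% complete SSC medium and 90% Earle's balanced salt solution, together with retinoic acid (RA), for 2 days. By that recipe the growth factors and other components of the complete medium were diluted in NRRA, although the labels do not say so. Bulk mRNA was sequenced from 2 libraries of each group. Nutrient restriction, growth factor dilution and RA were applied together in these libraries, so their separate contributions cannot be told apart.

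Cells make serine from the glycolytic intermediate phosphoglycerate in 3 steps, which are catalysed in order by PHGDH, PSAT1 and PSPH. Serine hydroxymethyltransferase then passes a carbon unit from serine to tetrahydrofolate and releases glycine, and the folate enzymes carry that carbon unit between oxidation states. These reactions run in parallel in the cytosol (SHMT1, MTHFD1, ALDH1L1) and in mitochondria (SHMT2, MTHFD2, MTHFD1L, ALDH1L2), where mitochondria commonly release formate that the cytosol uses to build purines, thymidylate and methyl groups. Serine synthesis genes are known to be raised by the transcription factor ATF4 when amino acids run short.

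Library totals lay between 28022265 and 31604769 counts. Stra8, the RA-induced gene that germ cells need to enter meiosis, had a mean of 9.85 CPM (the count as a share of its library's total after TMM scaling, the trimmed mean of M-values) in Veh and 1858 CPM in NRRA. Germ cell markers were present in every library, and the 17 of them summed to 0.337% and 0.341% of counts in Veh and to 0.573% and 0.574% in NRRA, of which 8 were higher and 8 lower in NRRA. The larger sum in NRRA rested on Stra8 and Kit, which rises as spermatogonia differentiate. Without these 2, left out after their values were seen, the other 15 summed to 0.335% and 0.339% in Veh and to 0.328% and 0.329% in NRRA, and Ddx4, a general germ cell marker, had a log2 fold change of 0.02 and was the 1 marker of the list that did not pass. The sum of the 15 holds moves in both directions: Id4, Zbtb16, Etv5 and Gfra1, markers of undifferentiated spermatogonia, were lower (log2 fold changes -3.32, -2.44, -1.97 and -1.39), and Sohlh1, Sall4 and Dmrt1 were higher (0.94, 0.84 and 0.63). The part of these marker changes in any enzyme's difference was not tested. The 20 fibroblast markers summed to 1.14% and 1.13% of counts in Veh and to 0.924% and 0.906% in NRRA, with 16 lower and 2 higher and a median log2 fold change of -0.33. The 8 Sertoli cell markers held 0.00342% and 0.00382% of counts in Veh and 0.00172% and 0.00184% in NRRA, mostly from Sox9 (735 and 874 against 304 and 284 counts), which was named after its values were seen, and the 6 Leydig cell markers 0.000732% to 0.000987%, with Amh, Rhox5, Fshr, Hsd3b1 and Lhcgr at 3 counts or fewer in every library. In bulk RNA, fewer cells of a type and less RNA per cell cannot be told apart, and the part of feeder or Sertoli cells in any enzyme's difference was not tested. The study describes the replicates of its sequencing experiments as biologically independent, without saying which culture or mice each library came from. The p-values measure the spread between these libraries, which may be smaller than that between separate cultures.

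Of the 10 enzymes, 6 were lower in NRRA, 1 was higher and 3 did not pass the test (edgeR quasi-likelihood F test, adjusted p under 0.05 over 20232 genes tested). The response of these cultures was broad, and 56.4% of all genes tested were called, with 28.4% of all genes lower and 27.9% higher. With library totals alone as the scaling, the split over all genes was 6962 higher and 4593 lower, instead of 5654 and 5752, and the enzymes still gave 6 lower and 1 higher. The median log2 fold change of the 10 enzymes was -0.37, beside 0.000289 over all genes tested. CPM values of the groups did not overlap for the 7 enzymes called, and the same was true of 76.7% of all genes tested. At least a 2-fold drop was called for 2 of the 10, Phgdh and Shmt2, beside 7.02% of all genes tested, and Aldh1l1 was the enzyme called higher. Shmt2 lay close to that bound, and without Veh replicate 1 (-0.96), without NRRA replicate 2 (-0.996) or with library totals alone (-0.93) only Phgdh passed it.

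**Figure D1:**
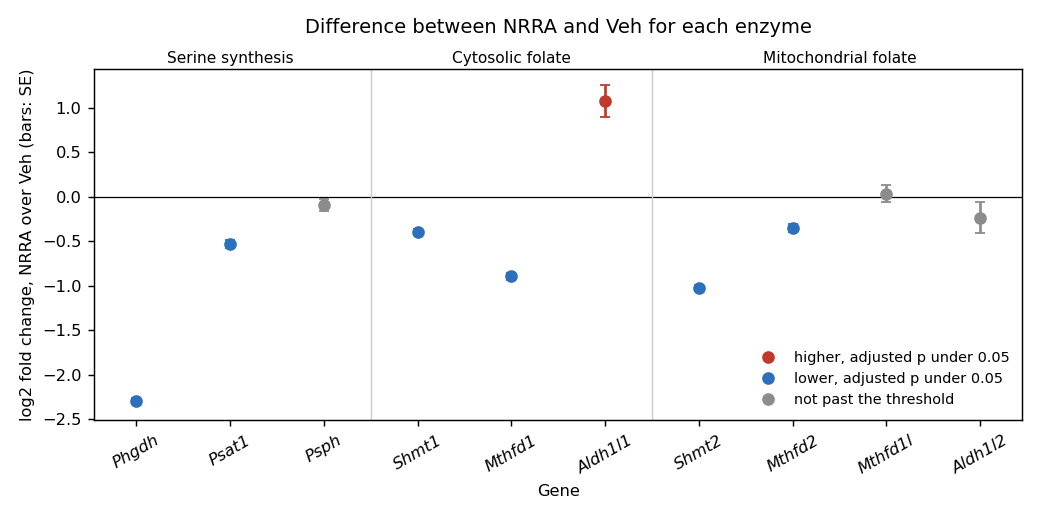
Log2 fold change (NRRA over Veh) of the 10 enzymes, grouped by pathway, with bars of 1 SE from the edgeR fit on 2 libraries per group and colours for the call. Phgdh stands lowest at -2.30, Aldh1l1 is the single enzyme above zero that passed the test, and Psph, Mthfd1l and Aldh1l2 lie near zero without passing it.

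Phgdh, which encodes the first enzyme of serine synthesis, changed most. It had 271 and 269 CPM in the Veh libraries and 54.3 and 55.6 CPM in the NRRA libraries. The libraries of each group lay close together and far from those of the other group. Phgdh was 4.91-fold lower in NRRA (log2 fold change -2.30, SE 0.03, adjusted p = 2.4e-26), and 1.80% of all genes tested had a lower log2 fold change. The gene (ENSMUSG00000053398) lies on chr3:98313170-98339990, minus strand (GRCm38).

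The mouse genome holds many retrocopies of Phgdh, and 89.5% of its longest transcript of 1893 bases recurs in some other gene with few changes (stretches of 100 bases or more, 95% identical or more). Of its stretches of 100 bases, 37.3% occur letter for letter in another annotated transcript, 651 of 1794 of them in Gm7901 and none in Phgdh-ps1. Reads from such stretches could have been lost or assigned to another copy by the counting. The named pseudogene, Phgdh-ps1 (ENSMUSG00000109290, chr7:83710966-83711719, minus strand), is a processed pseudogene of 754 bases that aligns to 47.2% of the 1599 coding bases of Phgdh with 26 mismatches (96.6% identity). The longer copies Gm9347 and Gm7901 align to 1598 and 1595 of those bases with 35 and 18 mismatches (97.8% and 98.9% identity). Coding bases 251 to 310 of Phgdh, counted from the A of the start codon, are printed with the same stretch of the 3 copies (GENCODE M21 transcripts, GRCm38) to show how little separates them. Capitals mark the letters that differ from Phgdh, 1 in Phgdh-ps1, 2 in Gm9347 and 1 in Gm7901.
Phgdh: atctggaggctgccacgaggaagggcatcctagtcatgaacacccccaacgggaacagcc
Phgdh-ps1: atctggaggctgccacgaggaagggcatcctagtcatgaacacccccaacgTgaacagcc
Gm9347: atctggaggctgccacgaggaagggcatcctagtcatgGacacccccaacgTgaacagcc
Gm7901: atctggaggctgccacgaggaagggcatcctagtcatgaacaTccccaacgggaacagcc

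Phgdh-ps1 itself was covered by 18 and 20 counts in Veh and by 4 and 2 counts in NRRA, against 7341 and 8009 in Veh and 1768 and 1675 in NRRA for Phgdh. The groups did not overlap, and the pseudogene was lower in NRRA (log2 fold change -2.75, SE 0.62, adjusted p = 0.000428). In all, 9 processed pseudogene copies of Phgdh met the near-identity rule, 8 of them passed the filter on low counts, and those 8 were each called lower. The copy with the most counts, Gm9347, went from 373 and 393 counts in Veh to 68 and 77 in NRRA, a log2 fold change of -2.54 (SE 0.14). For Gm7901 the counts were 94 and 106 in Veh and 27 and 27 in NRRA (log2 fold change -2.02, SE 0.25). The smallest difference among the 8 was that of Gm7669, which went from 41 and 41 counts in Veh to 23 and 23 in NRRA (log2 fold change -0.97, SE 0.33). The remaining copies called were Gm13337, Gm8341 and Gm5847, at log2 fold changes of -2.10, -2.02 and -1.38, and Gm9252, whose counts of 19 and 12 in Veh stood against 3 and 0 in NRRA. Gm5385 was not tested, with 2 counts in 1 Veh library and 0 in the other libraries. Of the other near-identical genes, Vmn2r-ps54 had 1 to 2 counts per library.

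Summed over the 9 copies, the counts came to 9.11% and 8.78% of the Phgdh count in Veh and to 8.94% and 9.97% in NRRA. The share overlapped between the groups. Adding Phgdh-ps1 to Phgdh gave a log2 fold change of -2.30, and adding all 9 copies, a choice made after seeing the data, gave -2.29. The call on Phgdh was the same with and without the counts of its copies. Whether the counts of the copies came from their own RNA or from Phgdh RNA was not tested.

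**Figure D2:**
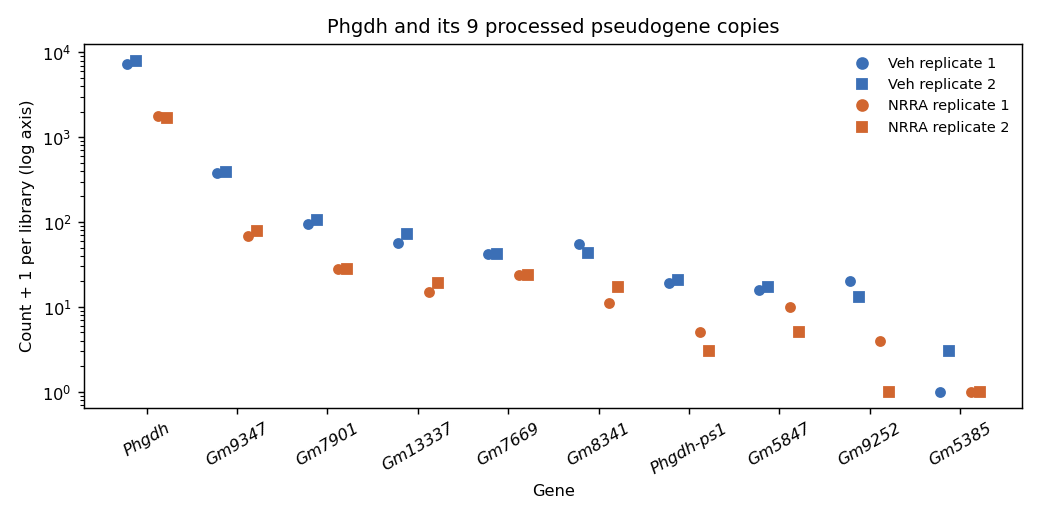
Counts plus 1 on a log axis for Phgdh and its 9 processed pseudogene copies in each of the 4 libraries (colour, group; shape, replicate). Every copy that was tested sits lower in both NRRA libraries than in both Veh libraries, and Phgdh-ps1 lies between 2 and 20 counts where Phgdh lies between 1675 and 8009.

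The second step of serine synthesis showed a smaller difference and the third none that passed the test. Psat1, the aminotransferase (ENSMUSG00000024640, chr19:15904678-15947337, minus strand), had 111 and 121 CPM in Veh and 79.8 and 81.4 CPM in NRRA. The groups did not overlap, with a log2 fold change of -0.53 (SE 0.04, adjusted p = 3.52e-11). Psph, the phosphatase that releases serine (ENSMUSG00000029446, chr5:129765558-129787449, minus strand), had 39.3 and 38.4 CPM in Veh and 39.3 and 33.5 CPM in NRRA. NRRA replicate 1 lay among the Veh libraries, and the log2 fold change of -0.09 (SE 0.07, adjusted p = 0.245) did not pass. Without NRRA replicate 1 it was -0.21 and passed (adjusted p = 0.0244), and without NRRA replicate 2 it was 0.01. For Psph, 26.1% of its longest transcript is shared with Cct6a, a chaperonin gene that overlaps it on the opposite strand, had 8520 to 11904 counts per library and was lower in NRRA (log2 fold change -0.45). Because the strand setting of the counting is not given, reads of these genes could be mixed.

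Summed CPM of the 3 serine synthesis genes went from 421.3 and 428.5 in Veh to 173.3 and 170.5 in NRRA. Phgdh made up 64.3% and 62.8% of that sum in Veh and 31.3% and 32.6% in NRRA. This is a share of reads, not corrected for length.

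Among the cytosolic folate enzymes 2 were lower and 1 was higher. Shmt1, the cytosolic serine hydroxymethyltransferase (ENSMUSG00000020534, chr11:60788104-60811718, minus strand), had 155 and 156 CPM in Veh and 118.7 and 118.5 CPM in NRRA. The libraries of a group differed by under 1 CPM, and the log2 fold change was -0.39 (SE 0.03, adjusted p = 1.25e-10). Mthfd1, a trifunctional enzyme that interconverts the cytosolic folate forms (ENSMUSG00000021048, chr12:76255298-76319803, plus strand), had 95.6 and 95.8 CPM in Veh and 51.6 and 51.4 CPM in NRRA. Again the groups were far apart beside their spread, at a log2 fold change of -0.89 (SE 0.04, adjusted p = 1.48e-15).

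Aldh1l1, which oxidizes formyl-tetrahydrofolate and so removes carbon units from the pathway (ENSMUSG00000030088, chr6:90486427-90600203, plus strand), moved the other way. Its counts were 66 and 73 in Veh and 182 and 142 in NRRA, which is 2.43 and 2.45 CPM against 5.59 and 4.72 CPM. The groups did not overlap, and Aldh1l1 was 2.11-fold higher in NRRA (log2 fold change 1.08, SE 0.18, adjusted p = 1.1e-05). It was among the least abundant of the 10 transcripts in both groups. The antisense gene Gm15756, which overlaps 11.0% of the Aldh1l1 exon bases, had 5 to 20 counts per library and was not tested. Gm45901 overlaps 2.33% of them on the same strand.

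Of the mitochondrial enzymes 2 were lower and 2 did not pass. Shmt2, the mitochondrial serine hydroxymethyltransferase (ENSMUSG00000025403, chr10:127517123-127522444, minus strand), had 301.5 and 277.5 CPM in Veh and 145.2 and 139.6 CPM in NRRA. Both NRRA libraries lay far below both Veh libraries, and Shmt2 was 2.03-fold lower (log2 fold change -1.02, SE 0.04, adjusted p = 9.02e-19). Mthfd2, the dehydrogenase and cyclohydrolase that is typical of dividing and embryonic cells (ENSMUSG00000005667, chr6:83305691-83325908, minus strand), had 72.3 and 79.8 CPM in Veh and 60.1 and 59.3 CPM in NRRA. The groups did not overlap, but the log2 fold change was small, at -0.35 (SE 0.05, adjusted p = 8.58e-07).

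Mthfd1l, which releases formate in mitochondria (ENSMUSG00000040675, chr10:3973118-4167081, plus strand), had 14.86 and 17.95 CPM in Veh and 17.90 and 15.74 CPM in NRRA. The groups overlapped, with a log2 fold change of 0.03 (SE 0.10, adjusted p = 0.785). Aldh1l2, the mitochondrial counterpart of Aldh1l1 (ENSMUSG00000020256, chr10:83487450-83534140, minus strand), had counts of 120 and 212 in Veh against 163 and 147 in NRRA, which is 4.424 and 7.125 CPM against 5.005 and 4.883 CPM. The Veh libraries lay on either side of the NRRA libraries, and the log2 fold change was -0.23 (SE 0.17, adjusted p = 0.268). Its call depended on 1 library: without Veh replicate 1 the value was -0.53 and passed (adjusted p = 0.00668), and without Veh replicate 2 it was 0.16. On the opposite strand D10Wsu102e overlaps 14.1% of the Aldh1l2 exon bases, had 4261 to 6137 counts per library and was lower in NRRA (log2 fold change -0.56).

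Levels were set against each other per kilobase of merged exon. In Veh the order of mean CPM per kilobase was Phgdh (109 ± 0.424, SD, n = 2), Shmt2 (93.1 ± 5.46), Shmt1 (40.1 ± 0.122), Psat1 (27.3 ± 1.62), Mthfd2 (21.8 ± 1.52), Mthfd1 (21.5 ± 0.0231), Psph (8.98 ± 0.157), Mthfd1l (3.70 ± 0.492), Aldh1l2 (0.770 ± 0.255) and Aldh1l1 (0.541 ± 0.00313). The neighbours Mthfd2 and Mthfd1 did not differ beyond their spread, nor did Aldh1l2 and Aldh1l1. In NRRA, Shmt2 came first at 45.8 ± 1.26, followed by Shmt1 at 30.5 ± 0.0455 and Phgdh at 22.1 ± 0.385. Psat1 (18.95 ± 0.273), Mthfd2 (17.1 ± 0.161), Mthfd1 (11.6 ± 0.0361), Psph (8.40 ± 0.951) and Mthfd1l (3.79 ± 0.344) kept the places they had in Veh, and Aldh1l1 (1.14 ± 0.136) now stood above Aldh1l2 (0.659 ± 0.0115). Neighbours in the NRRA order were separated by more than the spread between libraries, which does not cover the choice of length. By merged exon length, the enzyme at the head of serine synthesis went from the highest level of the 10 to the third. The longest transcripts are 1893 bases for Phgdh and 2617 for Psat1, against 2486 and 4254 bases of merged exon. Which of these genes stands higher in NRRA depends on the length used. Phgdh reads lost to its copies could also lower its level.

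**Figure D3:**
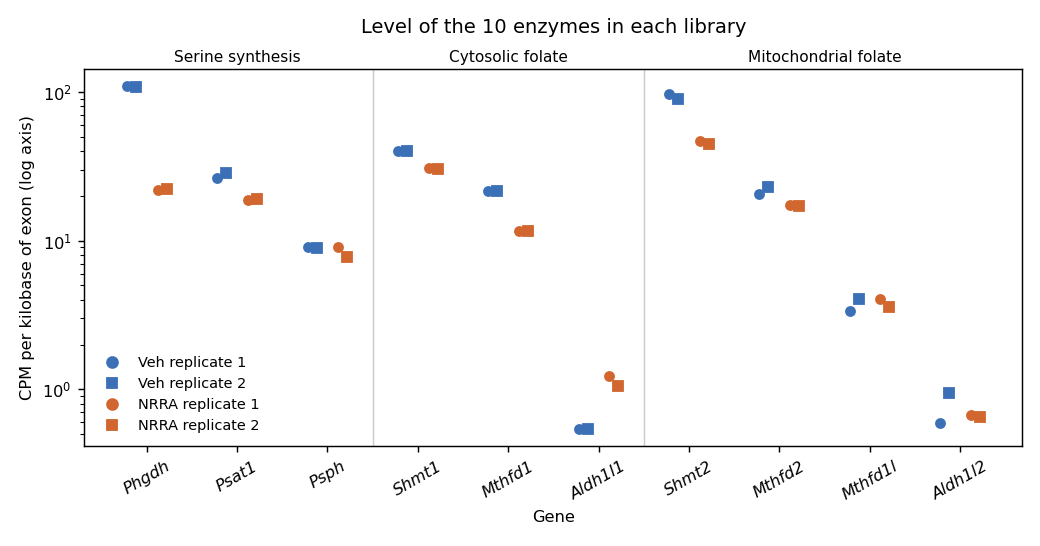
CPM per kilobase of merged exon on a log axis for each enzyme in each of the 4 libraries (colour, group; shape, replicate), with panels of the axis for serine synthesis, cytosolic folate and mitochondrial folate enzymes. Phgdh falls from near 109 to near 22.1, Shmt2 stays the most abundant folate enzyme, and Aldh1l1 and Aldh1l2 are the least abundant in both groups.

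The cytosolic and mitochondrial branches were compared within each library, where depth and scaling cancel. Summed over the 3 cytosolic enzymes, CPM went from 253.5 and 254.3 in Veh to 175.9 and 174.6 in NRRA. Over the 4 mitochondrial enzymes it went from 393.1 and 382.4 to 228.2 and 219.6. Both sums were lower in both NRRA libraries. The ratio of the mitochondrial to the cytosolic sum was 1.551 and 1.504 in Veh and 1.297 and 1.258 in NRRA, a difference of -0.26 on the log2 scale. The mitochondrial sum was the larger in every library, and its lead was smaller in NRRA. That smaller lead rested on Shmt2, since the remaining mitochondrial enzymes were higher relative to the cytosolic sum in NRRA. Shmt2 made up 76.7% and 72.6% of the mitochondrial sum in Veh and 63.6% and 63.6% in NRRA. No test was made on these sums, since they are scores over the members.

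Each mitochondrial enzyme was then set against its cytosolic or mitochondrial paralog. The coding sequences of a pair are 65.1% to 71.9% identical at the nucleotide level, and no pair shares a near-identical stretch. The Shmt2 to Shmt1 count ratio was 1.94 and 1.78 in Veh and 1.22 and 1.18 in NRRA, a difference of -0.63 on the log2 scale, and the groups did not overlap. The Mthfd1l to Mthfd1 ratio went the opposite way, from 0.155 and 0.187 to 0.347 and 0.306, a difference of 0.93 without overlap. Of that pair, Mthfd1 was called lower and Mthfd1l did not pass the test.

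For the formyl-tetrahydrofolate dehydrogenases, the Aldh1l2 to Aldh1l1 ratio was 1.82 and 2.90 in Veh and 0.896 and 1.035 in NRRA, a difference of -1.255 on the log2 scale. The groups did not overlap, though the Veh libraries differed widely from each other. The Mthfd2 ratio to its mitochondrial paralog Mthfd2l was 16.5 and 22.4 in Veh and 20.2 and 31.3 in NRRA, and these overlapped. With 2 libraries against 2, an exact two-sided permutation test cannot give a p below 0.333. It gave 0.333 for the 3 pairs without overlap and 0.667 for Mthfd2 and Mthfd2l (adjusted over the 4 pairs, 0.444 and 0.667), so that none could pass. In these values the branches did not move as blocks. The serine hydroxymethyltransferases and the dehydrogenases of formyl-tetrahydrofolate had lower mitochondrial to cytosolic ratios in NRRA, and Mthfd1l to Mthfd1 a higher one.

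**Figure D4:**
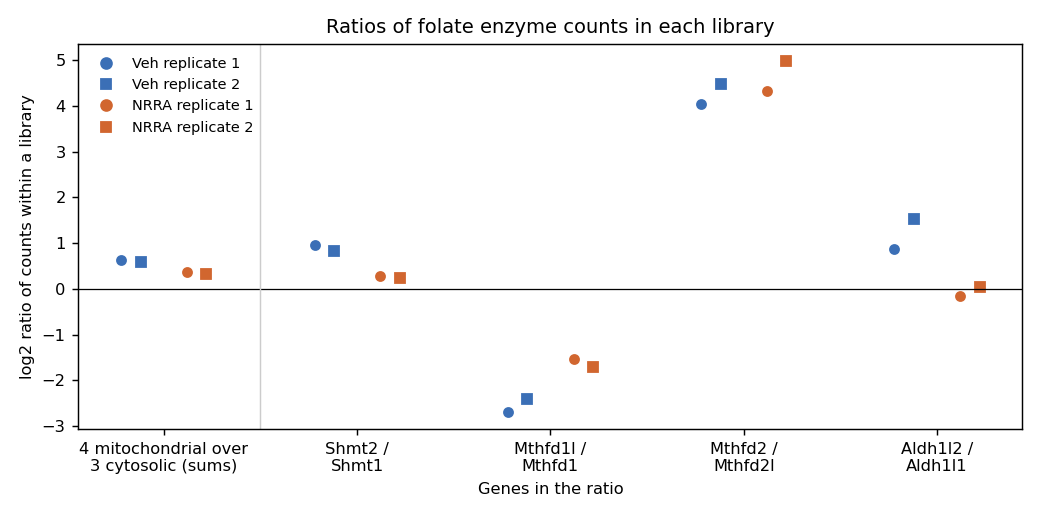
Log2 ratios of counts within each library (colour, group; shape, replicate) for the summed mitochondrial over cytosolic enzymes and for 4 pairs of paralogs. Shmt2 over Shmt1 falls from 0.96 and 0.83 to 0.29 and 0.24, Mthfd1l over Mthfd1 rises from -2.69 and -2.42 to -1.53 and -1.71, and the Mthfd2 over Mthfd2l points of the groups overlap.

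Promoter sequence was searched in RefSeq windows from 250 bases before to 50 after each start (GRCm38.p6), which were found for 9 of the 10 enzymes (not Aldh1l2). Letters searched on both strands were TGATGNAA (the core of the amino acid response element that ATF4 binds), CACGTG (the E box bound by MYC family proteins), CCAAT (bound by NF-Y) and TGACNNNGC (the core of the antioxidant response element). CCAAT was present for 7 of 9 enzymes, beside 41.1% of 27025 genes with such windows, and absent from the windows of Shmt2 and Mthfd1l. TGATGNAA was found for 0 of 9 (4.51% of all genes), CACGTG for 0 of 9 (8.09%) and TGACNNNGC for Phgdh and Psph (14.0%). A match of letters is not a binding site, and no match says only that these letters are not in this window. The 100 bases before the start are printed for 4 of the enzymes that were lower, to show the spread from 0 to 3 CCAAT matches, written along the gene's own strand with CCAAT or its reverse complement ATTGG in capitals. They are chr3:98339970-98340069 (minus) for Phgdh, chr12:76255132-76255231 (plus) for Mthfd1, chr10:127522445-127522544 (minus) for Shmt2 and chr6:83317605-83317704 (minus) for Mthfd2.
Phgdh: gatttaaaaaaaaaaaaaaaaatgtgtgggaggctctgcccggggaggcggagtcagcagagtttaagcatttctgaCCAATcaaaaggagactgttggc
Mthfd1: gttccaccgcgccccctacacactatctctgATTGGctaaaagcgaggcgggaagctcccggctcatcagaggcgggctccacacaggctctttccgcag
Shmt2: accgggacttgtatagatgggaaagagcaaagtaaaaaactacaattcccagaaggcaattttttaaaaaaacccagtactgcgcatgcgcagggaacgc
Mthfd2: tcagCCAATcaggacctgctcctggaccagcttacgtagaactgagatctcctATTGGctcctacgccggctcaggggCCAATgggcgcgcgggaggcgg

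Around the 10 enzymes, the remaining folate enzymes moved by smaller amounts in the cytosol. Of 7 cytosolic ones 6 were tested, 3 were lower and 1 was higher (median log2 fold change -0.09). Over all genes tested, 28.4% were lower and 27.9% higher. Tyms, thymidylate synthase, had 40.63 and 38.65 CPM in Veh and 32.95 and 30.59 CPM in NRRA, a log2 fold change of -0.32 (adjusted p = 9e-05). Ggh, which trims the glutamate tail of folates, was higher at 0.36 (adjusted p = 0.00582), and did not pass with DESeq2 (adjusted p = 0.0783) or without Veh replicate 1 (0.28, adjusted p = 0.0633).

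All 3 tested of the other mitochondrial folate genes were lower, of 4 in the list, beside 28.4% lower over all genes tested. Sardh, sarcosine dehydrogenase, had 11.2 and 10.2 CPM in Veh and 4.54 and 4.42 CPM in NRRA (log2 fold change -1.25, adjusted p = 5.07e-09). Mthfd2l was lower by the main test at -0.69 (adjusted p = 0.00665) and did not pass with DESeq2 (adjusted p = 0.0861), without NRRA replicate 2 (-0.41, adjusted p = 0.13) or without Veh replicate 1 (-0.54, adjusted p = 0.0554). Mtfmt, which formylates the initiator methionine tRNA of mitochondria, was at -0.51 (adjusted p = 3.75e-06).

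Transport of folate and serine was covered by 10 genes, of which 9 were tested, with 4 lower and 0 higher (median -0.22). The shares over all genes tested were 28.4% lower and 27.9% higher. Slc1a4, a transporter of serine and other neutral amino acids, went from 14.5 and 18.2 CPM to 9.58 and 10.4 CPM (log2 fold change -0.72, adjusted p = 2.97e-06). The mitochondrial carriers Slc25a32, for folate, and Sfxn1, for serine, were at -0.12 and -0.175 and did not pass (adjusted p = 0.152 and 0.072). Sfxn3, of the same family as Sfxn1, was lower at -0.50 (adjusted p = 1.49e-06). Slc7a10 was at 0.76 on 12 to 32 counts and did not pass (adjusted p = 0.123). Of the 4 genes of the glycine cleavage system, which yields carbon units from glycine in mitochondria, Gcsh was lower (-0.51, adjusted p = 5.08e-08), while Gldc (-0.09, adjusted p = 0.367) and Amt (0.20, adjusted p = 0.276) did not pass.

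Genes of the pathway's outputs were counted beside 28.4% lower and 27.9% higher over all genes tested. Of 10 purine synthesis genes, which consume formyl-tetrahydrofolate at 2 steps through Gart and Atic, 8 were lower and 1 higher (median -0.28). Impdh2 was the lowest at -0.45 (adjusted p = 6.8e-13) and its paralog Impdh1 the highest at 0.36 (adjusted p = 1.35e-08). In the methionine cycle 9 of 11 genes were tested, with 4 higher and 2 lower (median 0.05). Mtr, methionine synthase, went from 202 and 204 CPM to 154.5 and 147 CPM (log2 fold change -0.43, adjusted p = 1.1e-11), and Gnmt, a glycine methyltransferase, rose by 1.59 from 13 and 10 counts to 42 and 35 (adjusted p = 0.00142).

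Transsulfuration, which uses serine and homocysteine to make cysteine, was represented by 2 genes, both called higher. Over all genes tested, 27.9% were higher and 28.4% lower. Cbs counts were 34 and 29 in Veh against 60 and 92 in NRRA (log2 fold change 1.13, adjusted p = 0.00151), and it did not pass without NRRA replicate 2 (0.73, adjusted p = 0.0842). Cth counts were 58 and 70 in Veh against 117 and 125 in NRRA (0.78, adjusted p = 0.00132). Both rested on low counts. Of 7 genes of other serine use, 3 were lower and 1 higher (median -0.11), and its extremes, the serine dehydratase gene Sds (0.66, adjusted p = 0.107) and Sdsl (-0.53, adjusted p = 0.313), did not pass.

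**Figure D5:**
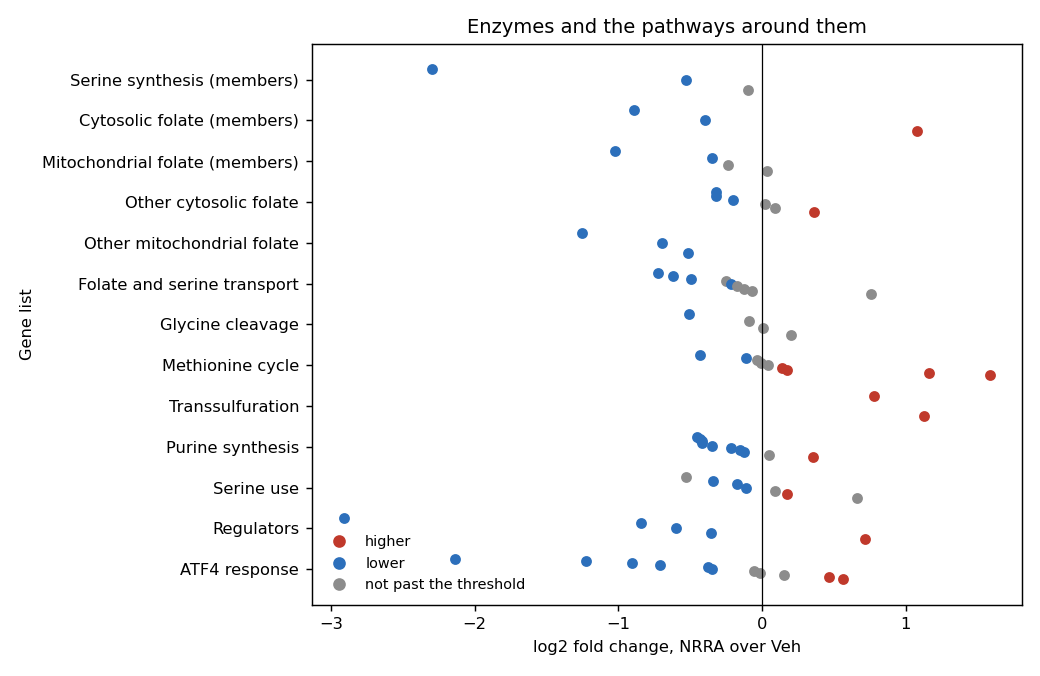
Log2 fold change (NRRA over Veh) of each tested gene in the 3 groups of enzymes and in 10 lists around them, coloured by call. Serine synthesis holds Phgdh far to the left at -2.30, transsulfuration lies wholly to the right of zero, and the regulator Mycn stands lowest of all at -2.91.

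Among 5 transcriptional regulators known to act on these pathways, 4 were lower and 1 higher (median -0.60), beside 28.4% lower and 27.9% higher over all genes tested. Mycn counts were 2811 and 2990 in Veh against 437 and 414 in NRRA, and mean CPM was 102 ± 2.23 against 13.6 ± 0.236 (SD, n = 2). Its log2 fold change was -2.91 (SE 0.06, adjusted p = 4.95e-24). It was the gene of these lists with the lowest value. Myc was lower as well, at -0.84 (adjusted p = 3.86e-07), and the histone demethylase gene Kdm4c was higher, at 0.72 (adjusted p = 7.26e-09). Atf4 went from 115 and 113 CPM to 75.9 and 74.7 CPM (log2 fold change -0.60, adjusted p = 6.12e-13). Protein amounts of these factors were not measured.

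The 11 genes of the ATF4 response had 6 lower and 2 higher, with a median of -0.35, beside the same 28.4% and 27.9% over all genes. Asns, asparagine synthetase and a standard readout of amino acid shortage, had 50.92 and 55.55 CPM in Veh and 52.35 and 53.18 CPM in NRRA. The NRRA libraries lay between the Veh libraries (log2 fold change -0.01, SE 0.05, adjusted p = 0.842). Trib3 was lower at -1.22 (adjusted p = 1.63e-07), as were Chac1 at -0.71 (adjusted p = 0.00321, and 0.0683 with DESeq2, which does not pass) and the cystine transporter gene Slc7a11 at -2.14 (adjusted p = 2.38e-18). Ddit3 had a log2 fold change of 0.16 that did not pass (adjusted p = 0.167), and Atf5 was higher at 0.56 (adjusted p = 5e-09). Psat1 and Phgdh, which are themselves targets of ATF4, were lower in the same libraries. The part of ATF4 in any enzyme's difference was not tested.

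The genes most like Phgdh over the 4 libraries were sought among the 11325 genes whose log2 CPM averaged 3 or more, by the Euclidean distance of log2 CPM centred on each gene. The nearest were Crmp1 (distance 0.0345), Sdc4 (0.0362), Glis3 (0.042), Sox2 (0.0862) and H2afy2 (0.098). Their log2 fold changes lay at -2.31, -2.33, -2.32, -2.24 and -2.235, beside -2.30 for Phgdh. With 4 libraries in 2 groups the distance mostly reflects the difference between the groups, and nothing about shared control follows from it.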

How the data were processed

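RNA of 2 Veh and 2 NRRA libraries of CD1 SSC cultures was compared. The authors deposited raw counts per gene, whole numbers without normalization. Per the labels, reads were processed with bcl2fastq, STAR 2.6.1c and featureCounts 1.6.4 on mm10. The annotation release and strand setting are not given in the sources used here. The labels name a TruSeq kit, the methods a stranded kit from Tecan. Groups and replicate numbers were taken from titles, and columns were matched through the descriptions, which number the Veh libraries 1 higher. No column was left unmapped.

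The 10 enzymes, the lists and the tests were chosen with earlier results of these data known. Counts were filtered with filterByExpr and scaled by TMM (factors 0.969 to 1.03), and NRRA was compared with Veh over 20232 of 55421 genes with edgeR 4.0.16 in R 4.3.3 (robust quasi-likelihood F test, Benjamini-Hochberg adjustment, threshold 0.05). The study's own DESeq2 was run (1.42.0) as an alternative, with limma 3.58.1 (voom). Log2 CPM used a prior count of 2. The floor of 3 counts was 0.0921 to 0.111 CPM, and the biological coefficient of variation was 2.61%. Counting intervals would cover counting error only. Replicates of a group differed by more than sampling noise (chi-square per degree of freedom 2.45 for Veh and 1.99 for NRRA, genes of at least 50 counts). The edgeR step was tested on simulated data in which few genes changed and all shared a common dispersion. The broad response of these cultures was not simulated, so error rates in these data do not follow from it.

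Coordinates, exon lengths and near-identical stretches came from GENCODE M21 (GRCm38), in which 55240 IDs matched (99.7%), and promoters from RefSeq (GRCm38.p6). Named outside the 10 enzymes are their near-identical genes, the extremes of each list, genes fixed by name (Mthfd2l, Tyms, Slc25a32, Gldc, Sfxn1, Slc1a4, Atf4, Asns, Ddit3, Trib3, Chac1, Myc, Mycn), Stra8 and the 5 genes nearest to Phgdh. Some genes under this rule are not reported here. Cell type markers named singly, Gart, Atic and Sfxn3 fall outside it, and their values had been seen. A planned protein alignment of paralogs was not run, and coding sequences were aligned in its place. Alternatives were the tool, the scaling, the filter, robust estimation, a replicate block, each library left out and the treatment of Phgdh copies.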

Additional observations from a re-analysis of the deposited data

How the results depend on the processing

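The 6 lower and 1 higher enzymes kept their direction and call under each of the alternatives run, with Phgdh between -2.31 and -2.21, Shmt2 between -1.08 and -0.93 and Aldh1l1 between 0.95 and 1.19 on the log2 scale. Over all genes 4267 to 6962 were higher and 4317 to 5836 lower. With each library left out in turn, 4996 to 5266 were higher and 5093 to 5351 lower, and the enzymes had 1 higher and 6 to 7 lower. The 7 came from Psph without NRRA replicate 1 and Aldh1l2 without Veh replicate 1. Values with 1 library left out spanned zero for the 3 enzymes not called, at -0.2113 to 0.01497 for Psph, -0.09193 to 0.1794 for Mthfd1l (-0.05748 without NRRA replicate 1) and -0.5272 to 0.1587 for Aldh1l2, and for Asns, at -0.07524 to 0.04952 (0.001933 without NRRA replicate 1). Asns was at 0.07541 with library totals alone. The cause of these changes was not tested. Library totals alone moved the median of all genes by 0.09. The mitochondrial over cytosolic log2 ratio differed by -0.30 per kilobase in place of -0.26, and by -0.28 to -0.24 with 1 library left out.

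Mthfd2l, Chac1, Ggh and Cbs lost their call in at least 1 of 3 fits (DESeq2, without NRRA replicate 2 and without Veh replicate 1), and Ddit3 gained one with library totals alone. Leaving out a library leaves an arm with 1 sample, which is assumed to vary like the other group. The replicate numbers are not said to mark a shared culture, and deviations of same-numbered libraries did not go together (Pearson r = -0.011 across genes). With the replicate block 5772 genes were higher and 5836 lower, and the enzymes still had 6 lower and 1 higher. Low counts limit Phgdh-ps1, Gnmt, Slc7a10, Sds and Sdsl (SE 0.35 to 0.62), and to a lesser degree Aldh1l1 and Aldh1l2 (SE 0.18 and 0.17).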
